A study of Homo sapiens with 4 samples.

Results

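Bru-seq was used to ask how nascent RNA of U2OS cells differs between hypertonic and isotonic medium, and 206 genes that were nearly silent in isotonic medium but lay just past the end of an active gene are described here. They were chosen among the 57428 genes with an entry for their own (sense) strand. Of these, 41535 overlapped no other gene on the same strand, and 28891 of those had a mean isotonic level under 0.05 RPKM (reads scaled to gene length and to library size). The 206 members began no more than 10 kb beyond a gene of the same strand, the neighbour, whose mean isotonic level was at least 1 RPKM, a level reached by 7099 genes. Isotonic values chose the members, so a comparison of hypertonic with isotonic levels on the sense strand is a description and carries no test. Only the hypertonic values, the strand opposite to each member and an isotonic library left out of the choice are independent of the choice.

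Hypertonic cells were held in medium brought to 300 mM sodium with concentrated phosphate-buffered saline, and isotonic cells in medium of 150 mM sodium that received the same volume of ordinary saline. Both groups are U2OS, an established human osteosarcoma line, and both stably overexpress the decapping cofactor DCP1a fused to GFP under G418 selection, so no cells without the transgene were compared. Newly made RNA was labelled with 2 mM bromouridine for 30 min and taken with no chase. Each group has 2 libraries. The labels do not say whether these came from separate cultures, so p-values measure the spread between libraries, which may be technical.

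RNA polymerase II does not stop where an mRNA ends. It transcribes past the polyadenylation signal until the new transcript has been cut and the polymerase released, a step to which the cleavage and polyadenylation complexes and the exonuclease XRN2 contribute. Transcription that continues far past the end of a gene is called read-through, transcription of the next gene by such polymerases is called read-in, and hyperosmotic stress is among the conditions in which read-through is known to occur in human cells. A nascent-RNA count of a gene does not show where the polymerase that made the RNA had started.

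The sense strand of all genes held 25068625 and 20870648 counts in hypertonic replicates 1 and 2, against 41932649 and 21865138 in the isotonic ones. The bone and mesenchymal genes VIM, SPARC, COL1A1 and RUNX2 were measured in every library (0.293 to 31.3 RPKM), whereas COL1A2 reached at most 0.00202 RPKM. Of the markers of other cell types, CD3E (T cells), HBB (red cells) and ALB (liver) were at 0 in all 4 libraries, PTPRC (leukocytes) and CDH1 (epithelium) did not exceed 0.0395 RPKM, and EPCAM (epithelium) ran between 0.0427 and 0.212 RPKM.

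The members were mixed in kind. GENCODE types them as 73 protein-coding genes, 37 processed pseudogenes, 29 antisense genes and 22 lincRNAs, and the other 45 fall among small RNAs and rarer classes. They were 47 to 189016 bases long (median 1692) and began 1 to 9966 bases past the neighbour's end (median 6599). They had 199 distinct neighbours, 182 of them protein-coding, and 7 neighbours had 2 members each. Another gene lay between the member and its neighbour in 21 cases.

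The starts of 6 members are shown because the counts described here cover genes whose own promoters differ widely in letters: AMPD1, CD79A, GRAMD2A and PTPN6 were among the members with the highest hypertonic levels, and SIT1 and PWP2 were listed under 0.05 RPKM in both hypertonic libraries. Each window runs from 250 bases before to 50 bases after the start in RefSeq (GRCh38.p14), 5′ to 3′ on the gene's strand. The windows are chr1:114695497-114695796 (minus strand), chr19:41877029-41877328 (plus), chr15:72197738-72198037 (minus), chr12:6946327-6946626 (plus), chr9:35650882-35651181 (minus) and chr21:44107149-44107448 (plus). Capitals mark the TATA motif TATAAA, the GC box GGGCGG, the CCAAT box and the polyadenylation hexamer AATAAA on either strand.
AMPD1: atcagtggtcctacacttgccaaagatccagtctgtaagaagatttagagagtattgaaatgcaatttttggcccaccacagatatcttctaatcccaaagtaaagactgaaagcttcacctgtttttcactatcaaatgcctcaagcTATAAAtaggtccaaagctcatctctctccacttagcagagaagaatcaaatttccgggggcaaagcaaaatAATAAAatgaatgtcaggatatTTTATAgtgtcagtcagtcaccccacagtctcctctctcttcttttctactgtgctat
CD79A: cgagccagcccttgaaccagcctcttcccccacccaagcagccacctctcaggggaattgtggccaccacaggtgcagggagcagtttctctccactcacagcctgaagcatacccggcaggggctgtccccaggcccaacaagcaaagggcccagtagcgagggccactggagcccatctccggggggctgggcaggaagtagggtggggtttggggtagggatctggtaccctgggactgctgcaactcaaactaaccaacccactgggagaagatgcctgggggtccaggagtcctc
GRAMD2A: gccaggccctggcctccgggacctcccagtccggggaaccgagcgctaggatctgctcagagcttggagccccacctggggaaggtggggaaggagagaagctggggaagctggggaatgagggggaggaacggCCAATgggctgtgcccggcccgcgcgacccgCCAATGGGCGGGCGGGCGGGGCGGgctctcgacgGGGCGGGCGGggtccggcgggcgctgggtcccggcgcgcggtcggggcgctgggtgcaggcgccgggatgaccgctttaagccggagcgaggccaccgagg
PTPN6: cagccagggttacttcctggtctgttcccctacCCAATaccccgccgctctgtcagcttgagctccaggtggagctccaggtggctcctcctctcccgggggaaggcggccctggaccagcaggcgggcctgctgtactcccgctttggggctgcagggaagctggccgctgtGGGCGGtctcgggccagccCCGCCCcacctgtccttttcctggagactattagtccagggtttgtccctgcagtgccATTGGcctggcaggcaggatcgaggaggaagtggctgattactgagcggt
SIT1: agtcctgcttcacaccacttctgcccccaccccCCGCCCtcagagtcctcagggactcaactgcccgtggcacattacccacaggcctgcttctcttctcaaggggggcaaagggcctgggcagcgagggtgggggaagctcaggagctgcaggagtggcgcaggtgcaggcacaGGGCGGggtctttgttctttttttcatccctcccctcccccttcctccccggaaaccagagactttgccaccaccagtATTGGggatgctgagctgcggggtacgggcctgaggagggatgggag
PWP2: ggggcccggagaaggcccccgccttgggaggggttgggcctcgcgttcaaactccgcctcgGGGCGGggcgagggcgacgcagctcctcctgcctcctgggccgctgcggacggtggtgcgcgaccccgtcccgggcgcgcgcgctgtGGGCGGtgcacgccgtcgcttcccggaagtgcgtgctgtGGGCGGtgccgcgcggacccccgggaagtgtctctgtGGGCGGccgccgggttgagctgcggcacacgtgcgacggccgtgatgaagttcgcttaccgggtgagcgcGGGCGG

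A RefSeq start within 1000 bases of the member's deposited start was found for 45 of the 206 members, and the motifs were counted in those. TATAAA stood in 11.1% of the members' windows and in 11.5% of all 35116 windows, GGGCGG in 48.9% and 45%, CCAAT in 35.6% and 34.6%, and AATAAA in 13.3% and 17.4%. The motifs were searched on both strands, and AATAAA can share letters with TATAAA. The median number of CG steps was 11 in the members' windows and 14 in all windows. Among the printed windows, AMPD1 held 2 matches to TATAAA and 1 CG, CD79A held none of the 4 motifs and 4 CG, and GRAMD2A held 6 matches to GGGCGG and 33 CG. The members with the highest hypertonic levels thus had starts that were rich in CG as well as starts that nearly lacked it.

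In hypertonic cells most members carried nascent RNA. The median level over the 206 members was 0.227 and 0.230 RPKM in hypertonic replicates 1 and 2, against 0.00043 and 0 RPKM in isotonic replicates 1 and 2. Both hypertonic values lay above both isotonic values in 162 members (78.6%), and in 0 members both lay below. The share of all genes with a sense entry for which both hypertonic values were the higher was 14.4%. Of the remaining members, 31 overlapped between the groups and 13 were at 0 in all 4 libraries. Since these are pooled cells, more RNA per cell and more cells making the RNA cannot be told apart.

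**Figure D1:**
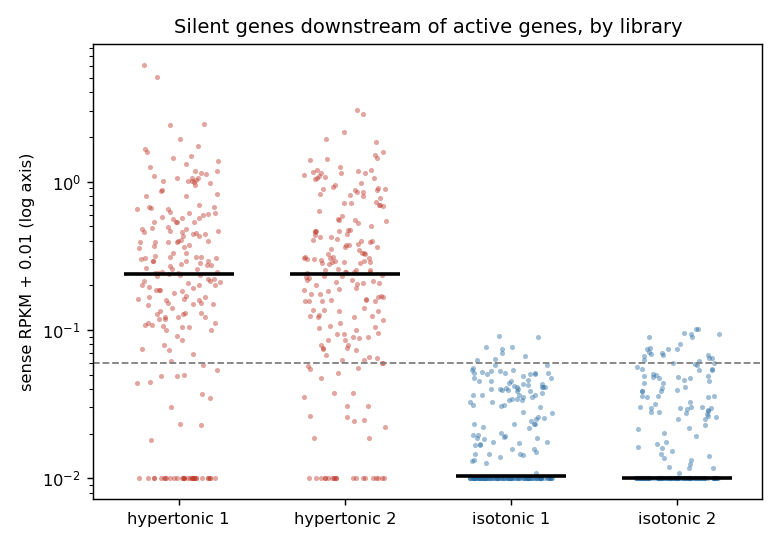
Sense RPKM plus 0.01 (log axis) of the 206 members in each library, one point per member, with a black bar at the median and a dashed line at the silence threshold. The points of both hypertonic libraries (red) sit mostly above the line, with medians of 0.227 and 0.230 RPKM, while most isotonic points (blue) lie at or near 0.

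The range was wide in hypertonic cells. The mean of the 2 hypertonic libraries was at least 0.05 RPKM in 181 members. Both libraries were at least 0.05 RPKM in 144 members, at least 0.5 RPKM in 27 and at least 1 RPKM in 9, and both were under 0.05 RPKM in 22. Among the 121 members with any isotonic count, the median of the hypertonic mean over the isotonic mean was 14.2-fold, with 100 members at 4-fold or more and 69 at 10-fold or more. The isotonic mean of each member is small by choice, which raises these folds.

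Length limits what a level near 0 can show, because in the shortest genes a single count exceeds the silence threshold in some libraries. Among the 123 members of at least 1 kb, 109 (88.6%) had both hypertonic values above both isotonic values. That share was 17.6% over silent genes of at least 1 kb with no active gene ending within 50 kb upstream. The same held for 31 of 54 members under 500 bases, where the share was 5.48% over all genes of that length and 2.08% over silent genes with no active gene ending within 50 kb upstream. It held for 44 of 45 members of 2 to 10 kb (17.7% of all such genes, 13.5% of the silent ones), 40 of 44 of 10 to 50 kb (22.8% and 25.6%) and all 9 longer ones (21.3% and 36.3%). By type it held for 65 of 73 protein-coding genes (17.8% of all such genes, 22.1% of those in the same silent class). For processed pseudogenes it was 31 of 37 (7.38% and 3.30%). It held for 20 of 22 lincRNAs (19.9% and 16.2%) and 21 of 29 antisense genes (23.6% and 17.7%). Of the small RNAs, it held for 4 of 9 microRNAs (4.46% and 1.37%) and 2 of 7 snRNAs (3.99% and 1.56%).

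The 2 hypertonic libraries differed from each other along long members. Counts summed over all members and divided by their summed length gave 0.307 and 0.159 RPKM in hypertonic replicates 1 and 2, against 0.0247 and 0.0261 RPKM in isotonic replicates 1 and 2. In members of 0.5 to 2 kb the pooled levels were 0.334 and 0.388 RPKM in the hypertonic libraries, against 0.0154 and 0.0115 RPKM in the isotonic ones. In the 9 members of 50 kb or more they were 0.202 and 0.0865 RPKM in the hypertonic libraries, against 0.0326 and 0.0325 RPKM in the isotonic ones. The hypertonic libraries were thus close to each other over short members, and over long ones replicate 2 was the lower. Across the 206 members the log2 levels of the 2 hypertonic libraries had a Pearson correlation of 0.46 over members, a description. Of the 169 members with counts in both, 75 were within 2-fold between these libraries, 20 were at least 4 times as high in replicate 1 and 17 at least 4 times as high in replicate 2.

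The ratio of a member to its neighbour takes both levels from the same library and does not depend on how libraries are scaled. Pooled over members and over neighbours, the members' level was 21.9% and 8.0% of the neighbours' level in hypertonic replicates 1 and 2, against 1.20% in each isotonic library. The log2 ratio between the group means was 3.64. The neighbours' own pooled levels were 1.40 and 1.99 RPKM in hypertonic cells and 2.05 and 2.18 RPKM in isotonic cells, so in hypertonic replicate 1 part of the higher ratio lay in the denominator. The 10 members with the most hypertonic counts held 46.2% and 27.1% of all member counts in hypertonic replicates 1 and 2, and without them the pooled ratios were 18.5% and 9.17% in hypertonic cells and 0.991% and 1.09% in isotonic cells.

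Member by member, the median ratio was 22.5% and 10.2% in hypertonic replicates 1 and 2, against 0.00675% and 0% in isotonic replicates 1 and 2. The ratio was higher in both hypertonic libraries than in both isotonic ones for 164 members and lower for 0. Choosing silent members beside active neighbours built in a low isotonic ratio, and no such share is given for other genes. A level of at least 10% of the neighbour was reached by 148 members in hypertonic replicate 1 and 103 in replicate 2, and by 1 member in either isotonic library. In hypertonic replicate 1, 19 members even exceeded their neighbour, as did 2 in replicate 2, and 0 did in isotonic cells. The ratio was higher in replicate 1 than in replicate 2 for 134 members and lower for 57, whereas the members' RPKM values were nearly evenly split.

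**Figure D2:**
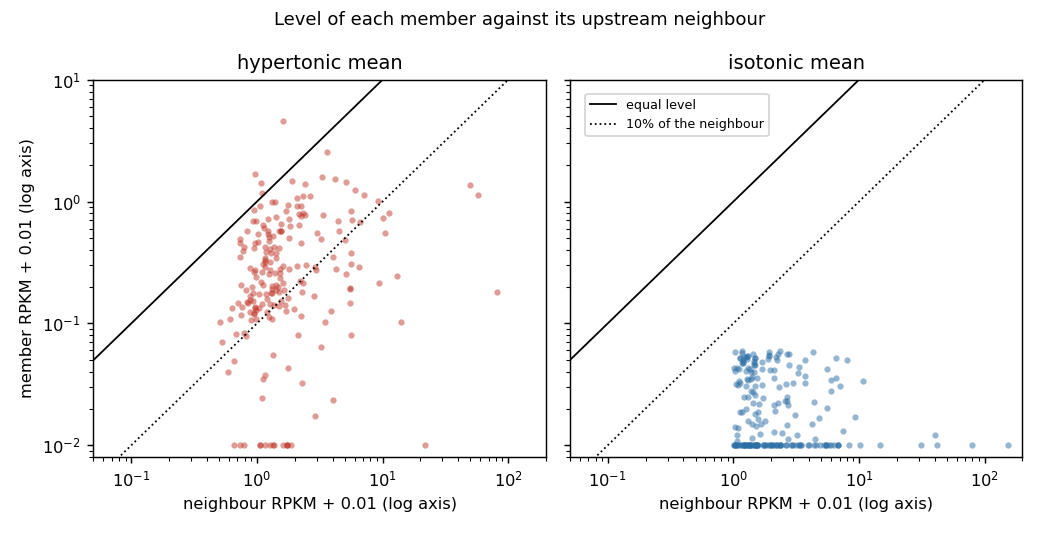
Mean RPKM plus 0.01 of each of the 206 members (vertical) against that of its neighbour (horizontal), both on log axes, in hypertonic cells (left, red) and isotonic cells (right, blue), with a solid line at equal level and a dotted line at 10% of the neighbour. The hypertonic points spread around and above the dotted line, and the isotonic points lie below it along the silence threshold and at 0.

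Members beside highly active neighbours were not higher in proportion. In hypertonic replicate 1 the median ratio was 28.9% for the 118 members whose neighbour had 1 to 2 RPKM in isotonic cells, 23.1% for 59 with 2 to 5 RPKM, 9.16% for 21 with 5 to 10 RPKM and 0.403% for 8 with 10 RPKM or more. In hypertonic replicate 2 the same medians were 13.5%, 11.1%, 5.01% and 1.29%. The pooled level of members did differ in the other direction: beside neighbours of 5 to 10 RPKM it was 0.627 and 0.376 RPKM in hypertonic replicates 1 and 2, and beside neighbours of 1 to 2 RPKM it was 0.221 and 0.124 RPKM. Over single members, the correlation of log2 levels of member and neighbour was weak, at 0.07 and 0.31 in the hypertonic libraries, against -0.14 and -0.18 in the isotonic ones (n = 206 members each, within 1 library).

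Within 10 kb, distance from the neighbour's end did not order the members. Both hypertonic values were above both isotonic ones in 7 of 10 members that began within 1 kb and 10 of 15 at 1 to 2.5 kb. The same held for 30 of 40 at 2.5 to 5 kb and 115 of 141 at 5 to 10 kb. The share was 14.4% over all genes and 10.9% over silent genes with no active gene ending within 50 kb upstream. The median ratio to the neighbour was 14.7%, 43.7%, 24.5% and 21.3% in these 4 bins in hypertonic replicate 1, and 11.6%, 15.6%, 10.8% and 9.46% in replicate 2. The correlation of a member's log2 level with the log10 distance was 0.02 in hypertonic replicate 1 and -0.02 in replicate 2. The 2 nearest bins hold few members.

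**Figure D3:**
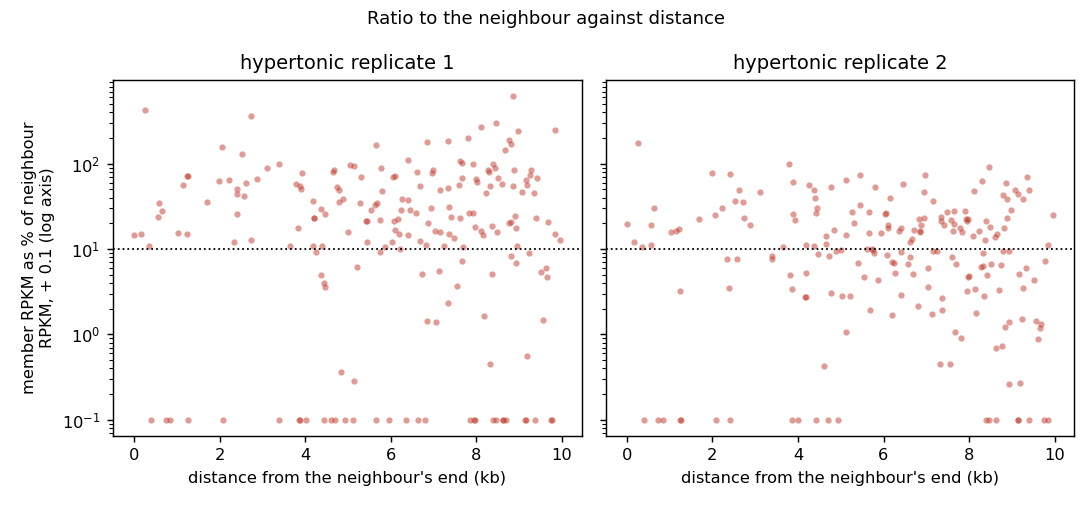
Level of each member as a percentage of its neighbour's level, plus 0.1 (log axis), against the distance in kb from the neighbour's end, for hypertonic replicate 1 (left) and replicate 2 (right), with a dotted line at 10%. Points above the line occur over the whole 10 kb in both libraries, and replicate 1 lies higher, with 148 members at 10% or more against 103.

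Beyond 10 kb and on the other side of active genes, silent genes chosen by the same isotonic threshold had lower hypertonic levels. Both hypertonic values were above both isotonic ones in 78.6% of the members, in 37.7% of 1334 silent genes that began 10 to 50 kb after the end of an active gene, in 21.3% of 461 that ended within 10 kb before the start of one, and in 10.9% of 27351 with no active same-strand gene ending within 50 kb upstream. Among genes of at least 1 kb these shares were 88.6%, 49.7%, 33.5% and 17.6%. In hypertonic replicates 1 and 2 the pooled level was 0.307 and 0.159 RPKM for the members. It was 0.113 and 0.0400 RPKM for genes 10 to 50 kb downstream and 0.0563 and 0.0318 RPKM for genes just upstream. For genes with no active gene ending within 50 kb upstream it was 0.0162 and 0.0156 RPKM. That class excluded no active gene that starts downstream or lies on the opposite strand. The genes just upstream were therefore also counted in it or in the class 10 to 50 kb downstream. In isotonic replicates 1 and 2 the pooled levels of the same 4 classes were 0.0247 and 0.0261, 0.0163 and 0.0153, 0.0115 and 0.0105, and 0.00876 and 0.00791 RPKM. The members were the highest of the 4 classes in every library, isotonic ones included, and the difference between classes was not tested.

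**Figure D4:**
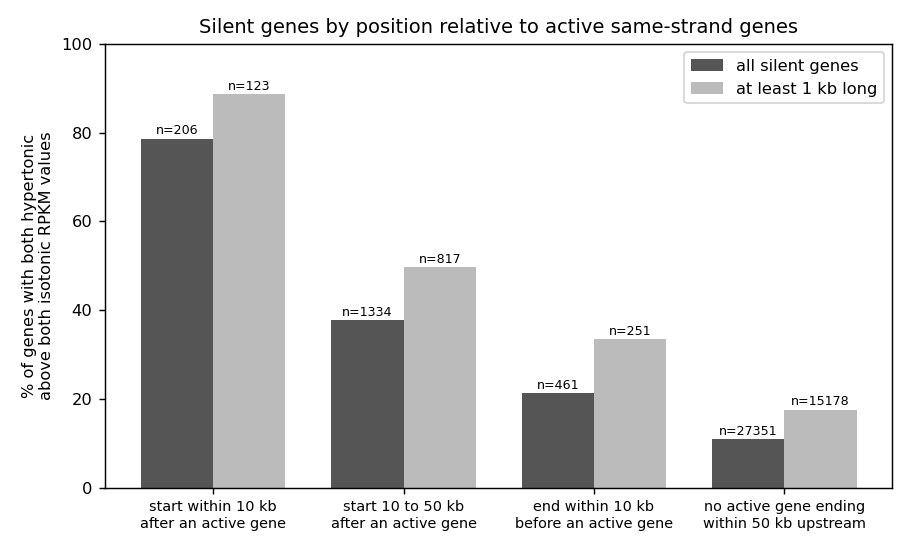
Percentage of silent genes with both hypertonic RPKM values above both isotonic values (vertical axis, from 0), in 4 classes by position relative to active genes on the same strand, for all silent genes (dark) and those of at least 1 kb (light), with the number of genes above each bar. The bars descend from 78.6% and 88.6% in the members to 10.9% and 17.6% in genes with no active gene ending within 50 kb upstream. Genes ending just before an active gene are also counted in another class.

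The highest members were taken as the 12 with the highest mean hypertonic level. Each had at least 20 counts in each hypertonic library, and at most 1 member per neighbour was taken. TMCO2 (chr1:40247901-40251691, plus strand), 6980 bases past the zinc-finger gene RLF, had 1.44 and 1.5 RPKM in hypertonic replicates 1 and 2, against 0.0265 and 0 RPKM in isotonic replicates 1 and 2. These were 190.1 and 153 counts against 5 and 0. The hypertonic values stood apart from the isotonic ones and were 83.2% and 73.9% of the level of RLF, which itself had 1.73 and 2.02 RPKM in hypertonic cells and 2.83 and 2.48 RPKM in isotonic cells. The fitted log2 fold change of TMCO2 was 6.46 ± 1.08 (SE), with 5.75 without isotonic replicate 2 and 10.32 without isotonic replicate 1, which leaves only a count of 0.

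CD79A (chr19:41877120-41881372, plus strand) encodes a signalling subunit of the B-cell receptor and began 4194 bases past RPS19, a ribosomal protein gene. It had 0.792 and 0.867 RPKM in hypertonic replicates 1 and 2, against 0.0141 and 0 RPKM in isotonic replicates 1 and 2, while RPS19 had 3.43 and 7.87 RPKM against 9.62 and 9.01 RPKM. The member was thus high in both hypertonic libraries and the neighbour low in 1 of them. The log2 fold change was 6.45 ± 1.08 for CD79A and -0.83 ± 0.41 for RPS19. Since CD79A had 3 and 0 isotonic counts, its value was 5.80 against isotonic replicate 1 alone and 9.66 against isotonic replicate 2 alone.

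PTPN6 (chr12:6946577-6961316, plus strand), which encodes the phosphatase SHP-1 of blood cells, began 575 bases past C12orf57. It had 0.647 and 0.899 RPKM in hypertonic replicates 1 and 2, against 0.0286 and 0.0640 RPKM in isotonic replicates 1 and 2, with 332 and 358 counts against 21 and 24.5. Its start region, printed above, holds matches to GGGCGG and CCAAT, unlike that of CD79A, and the groups did not overlap for either gene. The log2 fold change of PTPN6 was 4.03 ± 0.75, with 3.47 without isotonic replicate 1 and 4.72 without isotonic replicate 2.

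GRAMD2A (chr15:72159807-72197785, minus strand), a tether between endoplasmic reticulum and plasma membrane, began 1244 bases past PKM, the pyruvate kinase of glycolysis. It had 1.14 and 0.464 RPKM in hypertonic replicates 1 and 2, against 0.0206 and 0.0203 RPKM in isotonic replicates 1 and 2. PKM had 7.70 and 14.8 RPKM in hypertonic cells and 7.16 and 6.81 RPKM in isotonic cells. The member was 14.8% and 3.14% of PKM in hypertonic cells, and 0.287% and 0.298% in isotonic cells. Both hypertonic values exceeded the isotonic ones, and the log2 fold change was 5.37 ± 0.78, with 4.2 without hypertonic replicate 1 and 5.99 without hypertonic replicate 2.

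AMPD1 (chr1:114673098-114695618, minus strand), the AMP deaminase of skeletal muscle, began 8851 bases past the GTPase gene NRAS, with 1 other gene between. It had 2.40 and 0.0847 RPKM in hypertonic replicates 1 and 2, against 0.0134 and 0 RPKM in isotonic replicates 1 and 2. The counts were 1879 and 51.5, against 15 and 0. Hypertonic replicate 1 carried nearly all of its signal: the log2 fold change was 7.54 ± 1.77 over all libraries and 3.17 without that library. Leaving out hypertonic replicate 2 gave 8.39, and leaving out isotonic replicate 2 gave 6.73. Against isotonic replicate 2 alone, where the count is 0, it was 12.88.

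GPD1 (chr12:50103819-50111319, plus strand), the cytosolic glycerol-3-phosphate dehydrogenase, began 3107 bases past SMARCD1, a subunit of the SWI/SNF chromatin remodeller. It had 0.603 and 0.820 RPKM in hypertonic replicates 1 and 2, against 0.0415 and 0.0565 RPKM in isotonic replicates 1 and 2. Its level was 87.9% and 47.1% of that of SMARCD1 in hypertonic cells, and 1.48% and 2.97% in isotonic cells. It was also one of the members nearest to the silence threshold, so its isotonic level was measured well enough to give a log2 fold change of 3.79 ± 0.76.

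The lncRNA gene AL158013.1 began 9066 bases past XRN2, the exonuclease named above. It had 1.04 and 1.18 RPKM in hypertonic replicates 1 and 2, against 0.0134 and 0.0312 RPKM in isotonic replicates 1 and 2, and XRN2 had 2.22 and 2.40 RPKM against 3.82 and 3.65 RPKM. The other 5 of the 12 were RPL12P38 past APPBP2, AC005082.1 past NUPL2, AC242988.1 past APH1A, C17orf98 past RPL23 and AL513548.3 past ABT1, with single-library levels of 0.249 to 1.19 RPKM in hypertonic cells and 0 to 0.0913 RPKM in isotonic cells. The groups did not overlap in any of the 12, but picking high hypertonic levels among genes of low isotonic level made that likely. Over all genes both hypertonic values were the higher in 14.4%. RPL12P38 is a copy of a ribosomal protein gene, and reads shared with such copies make its level uncertain.

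**Figure D5:**
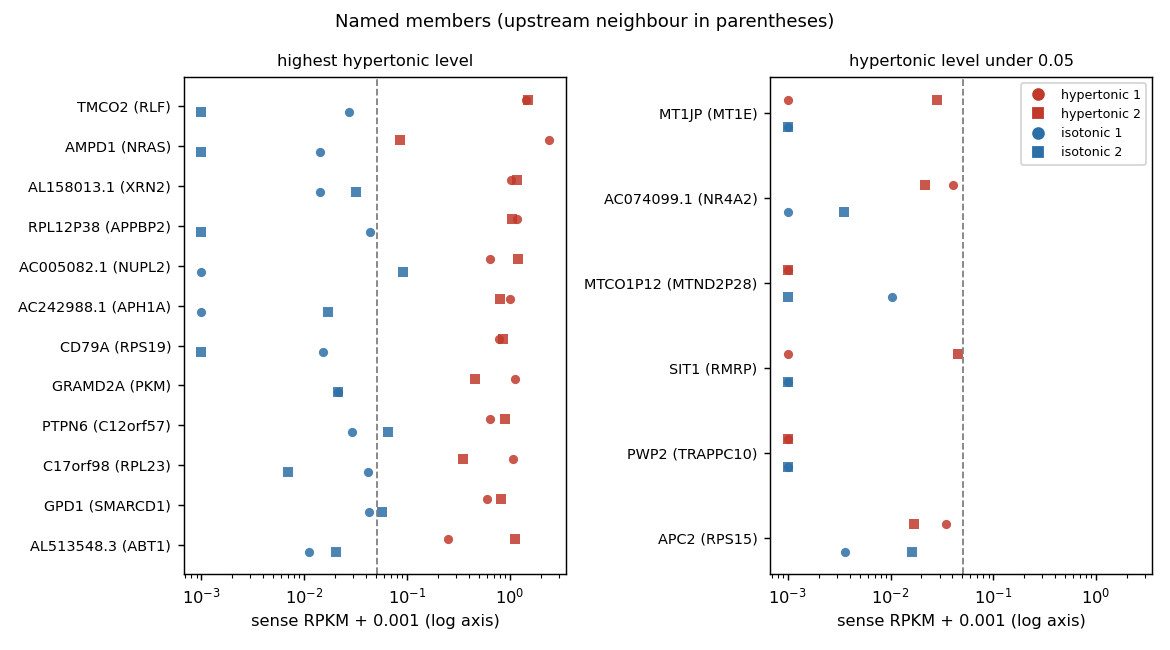
Sense RPKM plus 0.001 (log axis) in each library for the 12 members with the highest hypertonic level (left) and the 6 members with both hypertonic values under 0.05 RPKM beside the most active neighbours (right), with the neighbour in parentheses, hypertonic libraries in red above isotonic ones in blue, and a dashed line at the silence threshold. On the left the red and blue points of each gene are apart, widest between the 2 red points for AMPD1 (2.40 and 0.0847 RPKM), and on the right both groups lie near 0.

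A few well-known genes among the other members were picked after their values were seen and stand for no group. SLC5A5, the sodium-iodide symporter of the thyroid, had 0.381 and 0.0255 RPKM in hypertonic replicates 1 and 2, against 0.00086 and 0.00166 RPKM in isotonic replicates 1 and 2. CLCN1, the chloride channel of skeletal muscle, had 0.449 and 0.0648 RPKM in hypertonic cells, against 0.00669 and 0.00321 RPKM in isotonic cells. APOA1, the main protein of high-density lipoprotein and a product of the liver, had 0.236 and 0.387 RPKM in hypertonic cells, against 0.00733 and 0.0175 RPKM in isotonic cells. In these 3 genes the groups were apart, and in SLC5A5 and CLCN1, which are longer than APOA1, hypertonic replicate 2 was far below replicate 1. SOST, which encodes the bone-formation inhibitor sclerostin of osteocytes, had 0.307 and 0.425 RPKM in hypertonic cells, against 0.00397 and 0.00762 RPKM in isotonic cells. Others showed little or nothing: the cytokine gene IL17C had 0 and 0.0787 RPKM in hypertonic cells, against 0 and 0.0614 RPKM in isotonic cells, and the keratin-associated gene KRTAP2-2 was at 0 in all 4 libraries. GFAP, the glial filament gene, had 0.0133 and 0.0947 RPKM in hypertonic cells, against 0.0045 and 0 RPKM in isotonic cells.

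In 85 members both isotonic libraries were at 0, so a fold can only be bounded, here against a floor of 3 counts over both isotonic libraries together. AL008719.1, past YWHAH, had 55.4 and 137 counts in hypertonic replicates 1 and 2 against 0 and 0, and was at least 84.4-fold higher, or at least 40.2-fold from hypertonic replicate 1 alone and 129-fold from replicate 2 alone. TMEM235, past the survivin gene BIRC5, had 163 and 20.9 counts against 0 and 0, and was at least 68.9-fold higher, or at least 118-fold from hypertonic replicate 1 alone and 19.6-fold from replicate 2 alone. NGB, the neuroglobin gene, past POMT2, had 25 and 23 counts against 0 and 0, and was at least 19.8-fold higher. These 3 were picked after their values were seen, and in 59 of the 85 members the hypertonic mean exceeded the floor.

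Some members had both hypertonic values under 0.05 RPKM. PWP2, which encodes a factor of ribosome assembly, is listed at 0 in all 4 libraries over 23892 bases, and begins 738 bases past TRAPPC10. How reads that match several places were counted is not stated, so this 0 may not be a measured absence of RNA. SIT1, a gene of lymphocytes 6801 bases past the RNA gene RMRP, had 0 and 2 counts in hypertonic cells and 0 in both isotonic libraries. The level of RMRP rested on less than 1 count in every library, so it is not shown to be active. It was 1 of 6 neighbours with fewer than 20 counts in an isotonic library. AC074099.1, past the immediate-early gene NR4A2, had 21 and 8.39 counts in hypertonic cells and 0 and 1 in isotonic cells, so its values were ordered like those of most members while staying under the threshold. Its neighbour differed between the isotonic libraries, with 0.375 and 0.773 RPKM for NR4A2 in hypertonic replicates 1 and 2 and 0.233 and 5.17 RPKM in isotonic replicates 1 and 2. APC2, 9655 bases past RPS15, had 0.0336 and 0.0160 RPKM in hypertonic cells, against 0.00261 and 0.0150 RPKM in isotonic cells, so the groups stayed apart by a small margin. The last of the 6, MTCO1P12, is a copy of a mitochondrial gene past another such copy, MTND2P28, and had 0 counts in both hypertonic libraries and under 1 in isotonic cells.

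The metallothionein cluster on chromosome 16 held 3 members, and none of them had both hypertonic values above both isotonic ones. MT1M had 0 and 32.0 counts, MT1L 0 and 10.0 counts and MT1JP 0 and 1 count in hypertonic replicates 1 and 2, and all 3 had 0 counts in isotonic cells. The signal was thus confined to hypertonic replicate 2 in these 3 genes. Metallothioneins bind metal ions, and their genes are close copies of each other, so reads may be split between copies, and MT1L was picked after its values were seen. MT1M and MT1JP share the neighbour MT1E, which had 3.42 and 4.61 RPKM in hypertonic cells and 7.28 and 3.69 RPKM in isotonic cells.

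Other members that share a neighbour lay close together. Past HIST1H4H, a histone gene, the pseudogene HIST1H2APS4 had 0.149 and 0.217 RPKM in hypertonic replicates 1 and 2 and the farther histone gene HIST1H3G 0.262 and 0.112 RPKM, and both had 0 in isotonic cells. Past TIMM17A, a subunit of the mitochondrial protein importer, the snoRNA gene SNORA70H had 0.864 and 0.548 RPKM and the farther RPL10P4 had 0.283 and 0.705 RPKM in hypertonic cells, again with 0 in isotonic cells. These levels rest on 2 to 22 counts per library, and neither the nearer nor the farther gene was the higher in both hypertonic libraries.

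The members nearest to the silence threshold and the genes just beyond it had similar values. Just inside, at least 1 kb long, were UPK1A, GPD1, AC006116.4 and RAP1GAP, with isotonic means of 0.0482 to 0.0491 RPKM and hypertonic means of 0.123 to 0.780 RPKM. Just outside were LINC00163, AC008622.1, B3GNT8 and AC135506.1, with isotonic means of 0.0506 to 0.0529 RPKM and hypertonic means of 0.216 to 0.941 RPKM. RAP1GAP, a GTPase-activating gene of 73149 bases past USP48, had the smallest difference of the 8, with 0.140 and 0.107 RPKM in hypertonic cells against 0.0480 and 0.0485 RPKM in isotonic cells.

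With the quasi-likelihood test of edgeR over all libraries, 0 of 21238 sense genes passed an adjusted p of 0.05 (0.0% called higher), and the smallest adjusted p was 0.192. Only 98 members had enough counts to be tested, and a silent gene passes the count filter mainly through its hypertonic counts, so the number of them that were higher is not given as a result. Over all genes, 8.89% were higher at an unadjusted p under 0.05. DESeq2, run without the count filter, called 2.68% of genes with an adjusted p higher. Without the count filter edgeR called 2.33% of genes higher. With the filter kept, leaving out hypertonic replicate 2 raised the calls and leaving out hypertonic replicate 1 did not, with a single library left in that group. The adjusted calls on the sense strand thus turned on the filter and on which hypertonic library was in the fit. DESeq2 was not run on the filtered genes.

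An isotonic library that the choice of members did not use was had by choosing on 1 isotonic library and comparing with the other. Chosen on isotonic replicate 1 alone, 248 genes met the rule, and in 180 of them (72.6%) both hypertonic values lay above isotonic replicate 2, against 20.4% of all genes and 13.6% of 27330 silent genes chosen in the same way with no active gene ending within 50 kb upstream. Their median level was 0.229 and 0.270 RPKM in hypertonic replicates 1 and 2, against 0.00496 RPKM in isotonic replicate 2, and their pooled ratio to the neighbour was 22.5% and 9.36%, against 1.53%. Chosen on isotonic replicate 2 alone, 206 genes met the rule, of which 166 were among the members named above. In 164 of them (79.6%) both hypertonic values lay above isotonic replicate 1. The share was 18.8% of all genes and 13.3% of silent genes with no active gene ending within 50 kb upstream. Their median level was 0.256 and 0.273 RPKM in hypertonic cells, against 0.00667 RPKM in isotonic replicate 1.

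In these 3-library comparisons edgeR called 3 members higher, and the lone isotonic library is assumed to vary like the hypertonic pair. These were 2 of 156 members tested against isotonic replicate 2 and 1 of 131 against isotonic replicate 1, beside 0.017% and 0.0165% of all genes called higher. All 3 passed the count filter through their hypertonic counts, so their number carries no weight and their adjusted p is not given. AMPD1 was called against isotonic replicate 2, with 1879 and 51.5 counts in hypertonic replicates 1 and 2. These stood against 0 in that library and 15 in isotonic replicate 1, which chose it. Most of that difference lay in hypertonic replicate 1. AP001025.3, past the myosin light chain gene MYL12B, was called against isotonic replicate 2, with 668 and 345 counts in hypertonic cells. It had 1 count in that library and 11.0 in isotonic replicate 1. DDX25, an RNA helicase gene of the testis past HYLS1, was called against isotonic replicate 1, with 604 and 198 counts in hypertonic cells. It had 0 counts in that library and 3 in isotonic replicate 2.

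The strand opposite to the members, which the choice did not use, gave a share close to that of all antisense entries. An antisense entry existed for 162 members. In 40 of them (24.7%) both hypertonic values lay above both isotonic ones, and in 2 both lay below. The share with both above was 23.8% of all 47490 antisense entries. It was 15.7% for silent genes with no active gene ending within 50 kb upstream and 28.1% for those 10 to 50 kb downstream. The difference between these shares was not tested. The pooled antisense level over the members was 0.0535 and 0.0690 RPKM in hypertonic replicates 1 and 2 and 0.0274 and 0.0290 RPKM in isotonic replicates 1 and 2, and over all genes 0.0481 and 0.0352 RPKM in hypertonic cells and 0.0195 and 0.0208 RPKM in isotonic cells. In edgeR 0 of 33 members tested were called on that strand, as were 0 of 9996 genes (0.0%). At an unadjusted p under 0.05, 3 members were higher and 2 lower, against 12% of genes higher, and DESeq2 called 2 members higher, against 4.07% of genes.

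The antisense entries nearest to the threshold were those of ISM2, past SPTLC2, and HYKK, past IREB2, picked after their values were seen. Antisense to ISM2 there were 59.0 and 64.4 counts in hypertonic cells and 0 in both isotonic libraries, with an adjusted p of 0.0613 by edgeR. Antisense to HYKK there were 35.0 and 55.0 counts in hypertonic cells and 2 and 0 in isotonic cells, with an adjusted p of 0.0873 by edgeR. Both groups were apart, and neither passed. On the sense strand, both hypertonic values lay above both isotonic ones in 110 of the 135 members that overlap no opposite-strand gene (81.5%). The same held for 12 of 19 that overlap an active one, and this difference was not tested. Over all genes with a sense entry the share was 14.4%.

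Of the members' 199 distinct neighbours, 196 were tested on the sense strand, and 158 had a negative and 38 a positive log2 fold change, with a median of -0.45. The median was -0.37 over the 6560 active genes tested and 0.04 over all genes tested. Neighbours and active genes were chosen for a high isotonic level, which pulls their fold changes down, so these signs are a description. With libraries scaled by total count, 131 of the 196 were negative and the median was -0.18, against 0.26 over all genes.

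Of 30 listed genes of cleavage, polyadenylation and termination, 0 passed the adjusted threshold in edgeR. In these, 23 had a negative and 7 a positive difference between the groups, beside 5204 negative and 1356 positive of 6560 active genes tested. The median log2 fold change of the 30 was -0.41. At an unadjusted p under 0.05, 3 were lower and 0 higher, beside 2.01% of all genes and 6.07% of active genes lower. With libraries scaled by total count 0 were lower at that p, and with upper-quartile scaling 1 was. Without hypertonic replicate 2, edgeR called 12 of the 30 lower at an adjusted p of 0.05, beside 25.4% of active genes. The 3 genes were CPSF6 (log2 fold change -1.20 ± 0.42 SE) and CPSF7 (-1.06 ± 0.38), subunits of cleavage factor I, and WDR82 (-1.04 ± 0.43), which takes part in termination. CPSF6 had 0.923 and 2.17 RPKM in hypertonic replicates 1 and 2, against 3.22 and 3.35 RPKM in isotonic replicates 1 and 2, and XRN2 had a log2 fold change of -0.72 ± 0.39. The 7 positive genes were FIP1L1 (0.67 ± 0.61), CLP1 (0.44 ± 0.64), CPSF2 (0.29 ± 0.40), CPSF1 (0.25 ± 0.80), CPSF3 (0.17 ± 0.41), PCF11 (0.07 ± 0.38) and RBBP6 (0.07 ± 0.45). Over all active genes tested the median was -0.37.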

How the data were processed

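Nascent RNA was measured in 4 libraries, 2 hypertonic and 2 isotonic. The submitters' processing notes name STAR 2.5.3a, bedtools 2.16.2, CASAVA 1.8.2 and Bowtie2 2.3.3, with hg38 and GRCh38 as builds. The annotation release and the role of each tool are not given in the sources used here. The authors deposited an expected count of reads and an RPKM value for each of 105538 gene and strand entries per library. Both meanings were read from the values, since the tables have no header. The RPKM values the authors deposited equal count over length and over 1 constant per library. The deposited counts summed to 28367788 and 23048409 in hypertonic replicates 1 and 2, against 44888307 and 23410787 in isotonic replicates 1 and 2. Entries of regions shared by overlapping genes (48, with 3.11 to 3.48% of counts) and genes with no unique match in GENCODE 29 (0.171 to 0.216% of counts) were left out.

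Strand and type came from GENCODE 29. Overlap on the same strand was judged on the deposited and the GENCODE coordinates together, and the deposited coordinates, counted from 1 on GRCh38, are printed. Levels of sets were pooled as summed counts over summed length. Expected counts were rounded and fitted over all genes with edgeR 4.0.16 in R 4.3.3 (TMM factors 0.947 and 1.22 in hypertonic, 0.974 and 0.887 in isotonic replicates 1 and 2; default filter; quasi-likelihood test; Benjamini-Hochberg adjustment at 0.05), which was tested on simulated data. Fold changes are hypertonic over isotonic. DESeq2 1.42.0 was an alternative, run without the edgeR filter. With 2 libraries against 2, an exact permutation test of 1 value cannot give a p below 0.333, so none is given. Reads were counted, with no mention of molecular identifiers. Per the labels' protocols, some samples were made strand-specific with actinomycin D, which ones is not stated, and the length of the hypertonic exposure is not given. Figures were drawn with matplotlib 3.10.9 from tables read with pandas 2.3.3.

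The members and lists were chosen with earlier results of these data known. Genes were named by rule. The first set was the 12 members with the highest mean hypertonic level and at least 20 counts in each hypertonic library. The second was the 6 of at least 1 kb with both hypertonic values under 0.05 RPKM beside the most active neighbours. Also named were the 4 on each side of the silence threshold and the 3 neighbours with most members. The last were members called in the 3-library comparisons or on the antisense strand. At most 1 member per neighbour was taken in the first 2 sets. Genes named outside the rule are marked in the text as picked after their values were seen.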

Additional observations from a re-analysis of the deposited data

How the results depend on the processing

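The log2 of the pooled ratio (hypertonic over isotonic means, 3.64) was 5.86 with a silence threshold of 0.02 RPKM, 5.73 with neighbours of at least 5 RPKM, and 2.74 to 4.19 when 1 library was left out. The share of members with both hypertonic values above both isotonic ones (78.6%) was 72.3% for starts within 5 kb, 88.6% for members of at least 1 kb, and 79.1 to 88.3% when 1 library was left out, which leaves fewer values to order. The median log2 fold change of members tested (4.11) ran from 3.45 to 4.58 when 1 library was left out. Over all genes tested it was 0.04, and 0.02 to 0.12 when 1 library was left out. Members were chosen for low isotonic levels and tested mainly through hypertonic counts, so a high median was built in. Other alternatives moved the values of the members by less. With a threshold of 0.1 RPKM the pooled value was 3.49, and without the 10 members with most hypertonic counts it was 3.73. A ratio taken as a median over members gave no value, since the median is 0 in isotonic replicate 2.

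Counts of calls depended on the count filter and on single libraries, and less on the tool. Apart from the left-out libraries the cause was not tested. On the sense strand, 37347 genes and 192 members were tested without the count filter, and edgeR called 2.33% of these genes higher. DESeq2 gave an adjusted p to 24314 genes and 131 members, and called 2.68% of these genes higher. With the filter kept, edgeR called 0 of 21238 genes and 0 of 98 members. Without the count filter it called 916 genes (869 higher) and 73 members higher, with DESeq2 the counts were 676 (651 higher) and 53, and they ran from 0 to 4918 genes and 0 to 87 members when 1 library was left out, the highest without hypertonic replicate 2. The 2 other counts above 0 came without isotonic replicate 1 (2 members) and without isotonic replicate 2 (1 member). On the antisense strand edgeR called 0 genes and 0 members. With the sense TMM factors it called 1867 genes (18.7%) and 5 of 33 members. This scaling shifted the median log2 fold change of all antisense genes to 1.25, against 0.08 with their own factors. Without the filter it called 510 genes (1.88%) and 3 members, with DESeq2 the counts were 411 and 2, and they ran from 0 to 1309 genes and 0 to 5 members when 1 library was left out, the highest without hypertonic replicate 2, with 273 genes and 2 members without hypertonic replicate 1. Scaling by total count shifted the median of all sense genes to 0.26, against 0.04 with TMM.

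The replicate numbers are shared by the groups but the labels do not say that they pair libraries, and the deviations of same-numbered libraries correlated at 0.02. With the replicate number as a block, edgeR called 384 sense genes, 380 of them higher (1.79%), and 58 of 98 members higher. On the antisense strand it called 332 genes (3.32%) and 2 of 33 members. Members pass the count filter mainly through hypertonic counts, so their counts of calls carry no weight. Depth limits the short members most.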
